A study of Mus musculus with 2 samples.

Results

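Ngfr, Bdnf, Ntrk2, Sox10, Mbp and Th were followed as a view of the nerves of the cultured mouse ovary. These 6 genes were chosen by name, with no threshold on their signals, from 20658 genes that could be named on the array. All probes whose RefSeq transcript belongs to 1 of them were taken, which gave 10 probes at 28 spots out of 55674 probes at 59305 spots. Ngfr, Bdnf, Sox10 and Th had 1 probe each, and Ntrk2 and Mbp had 3 each. Ovaries of 2-week-old mice, cut lengthwise, had been kept in organ culture for 3 days with tachykinin receptor (TKR) ligands. The agonist group received [Sar9, Met(O2)11]-SP for TACR1, GR-64349 for TACR2 and a succinylated fragment of substance P for TACR3, whereas the antagonist group received a non-peptide antagonist of TACR1, GR-94800 for TACR2 and SB218795 for TACR3, each at 1 μM. RNA of each group was labelled with Cy3 and hybridised to 1 single-colour Agilent array. Cutting an ovary into matching pieces was meant, per the study's methods, to limit error from differences between ovaries. The number of ovary pieces behind each RNA is not given in the sources used here, nor which pieces went to which array, and ovaries without ligand were not analysed here.

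Neurotrophins are secreted growth factors that keep neurons alive and guide their fibres. Each of them, BDNF among them, binds a receptor tyrosine kinase of the Trk family, and all of them also bind the receptor p75, encoded by Ngfr. The ovary is supplied by sympathetic and sensory fibres that enter with its vessels, and follicle cells and oocytes are themselves known to make neurotrophins and their receptors. Schwann cells, the glia of peripheral nerves, depend on the transcription factor SOX10, and those that myelinate make myelin basic protein. Sympathetic neurons make noradrenaline, starting with tyrosine hydroxylase. Most of their cell bodies lie in ganglia outside the ovary, while Schwann cells lie along the fibres within it.

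Each group had 1 array, which left no spread between cultures to test against, so p-values are not given. Of the spots, 65.4% were called well above background by the image software with the agonists and 61.6% with the antagonists, and 0 were marked as saturated. Before comparison, signals were divided by the 75th percentile of their own array (672 signal units with the agonists, 569 with the antagonists). Log2 ratios are given as agonists minus antagonists, so that 1 stands for a 2-fold higher signal with the agonists. Over the 33073 probes that passed this call on both arrays, the median of these ratios was -0.10, and it was 0.14 without scaling, so the sign of a ratio close to 0 depends on the scaling. The RNA had the markers of an ovary on both arrays, with all 6 granulosa cell markers, all 6 oocyte markers and 5 of 6 theca and stroma markers well above background, and Lhcgr at 4.29 and 4.49 signal units, below it. In RNA of a whole tissue, fewer cells of a type and less RNA per cell cannot be told apart.

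All 6 genes were detected, and by the brightest probe of each gene none differed by as much as 2-fold between the ligands. A dimmer probe of Mbp, not well above background with the antagonists, had a ratio above 2-fold. By the brightest probes, 6 of 6 were well above background on both arrays, against 73.9% of all named genes. Of the 6, 0 were higher with the agonists by 2-fold or more and 0 lower, where 4.01% and 0.577% of the 15258 named genes measured on both arrays were. At 1.5-fold, Mbp alone passed on the higher side, or 1 of 6 against 9.26% of all named genes, and 0 passed on the lower side against 4.28%. The log2 ratios of the brightest probes lay between -0.20 and 0.59 with a median of -0.03, beside -0.10 for all named genes. For 5 of the 6 genes, all but Mbp, the ratio was smaller than the software's own error for it.

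**Figure D1:**
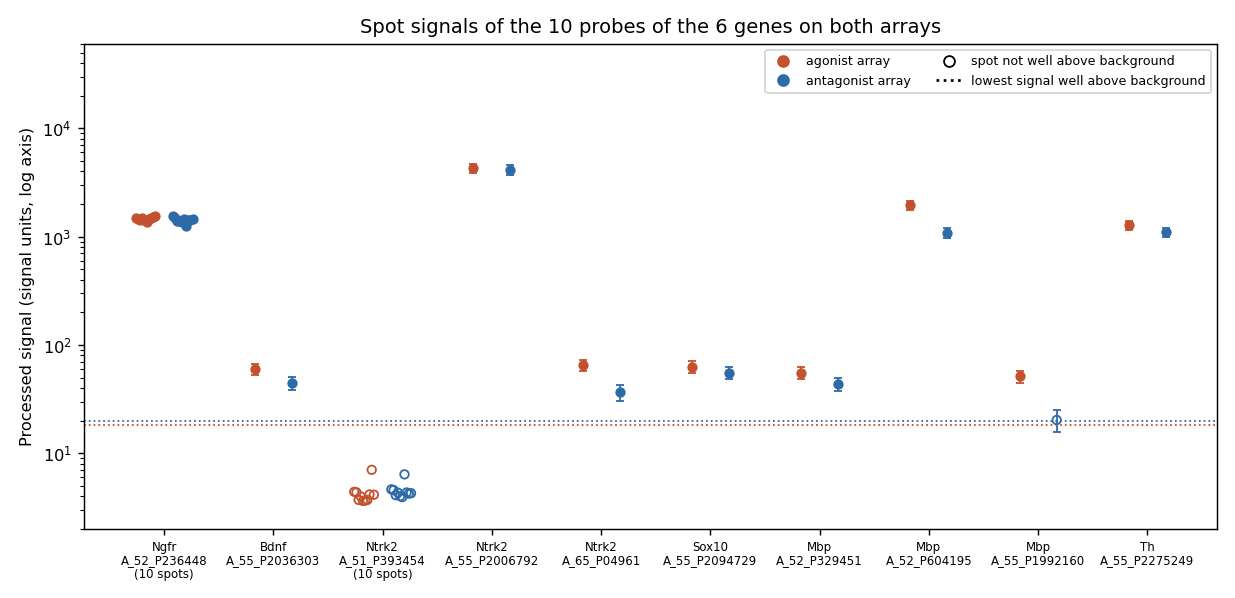
Processed signal of each spot (signal units, log axis) for the 10 probes of the 6 genes, with the agonist array in orange and the antagonist array in blue. Filled points are spots well above background, open points are not, bars on single spots are the software's error, and dotted lines are the lowest signals well above background (18.1 and 19.9). The Ngfr spots and 1 probe each of Ntrk2, Mbp and Th lie in the upper part, while the 10-spot probe of Ntrk2 lies under the dotted lines on both arrays; heights of different probes cannot be compared as levels, because probes differ in how well they bind.

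Ngfr, which encodes the neurotrophin receptor p75, was the best measured of the 6, because its probe for NM_033217 was printed at 10 spots. With the agonists the lowest spot was at 1372 signal units, the median at 1469 and the highest at 1566, and the mean was 1468 ± 51.3 (SD, 10 spots). With the antagonists the lowest was at 1263, the median at 1415 and the highest at 1548, the mean was 1425 ± 77.1 (SD, 10 spots), and the software marked the spot at 1548 as an outlier. The signals of the spots overlapped widely between the ligands. After scaling, the log2 values ran from 1.03 to 1.22 on the agonist side and from 1.15 to 1.39 on the antagonist side, so the ranges still overlapped. The log2 ratio was -0.18 with an SD of 0.09 over the 9 pairs of spots at the same place on both arrays, and 0 of these 9 were above 0. Without scaling the ratio was 0.06 and 7 of the 9 pairs were above 0. Set against the median of all measured probes, Ngfr was at -0.09 on the log2 scale, and the software's error for the ratio was 0.20. An SD of this kind holds the error from spot to spot, not the spread between ovaries.

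Bdnf encodes brain-derived neurotrophic factor, the ligand of TrkB. Its single spot, for NM_007540, gave 59.6 signal units with the agonists and 44.8 with the antagonists, and both were well above background. These signals were 3.29 and 2.25 times the lowest signal well above background of their arrays, so Bdnf was dim on both. The agonist signal was the higher of the pair. The log2 ratio of 0.17 was nevertheless smaller than the software's error of 0.26 for it. It ended at -0.08 when the background was corrected by normexp. That method models the spot signal as background plus an exponential signal and here adds an offset of 50. The offset draws the signals of dim spots together before scaling, so their ratios shrink under normexp by construction.

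Ntrk2 encodes TrkB, which exists as a full-length receptor with a kinase domain and as truncated forms without one. Its 3 probes gave unlike results. The probe A_55_P2006792, for NM_001025074, gave 4256 signal units with the agonists and 4144 with the antagonists, which differ by less than the software's error of 426 and 414 for these spots. Its log2 ratio was -0.20 with an error of 0.20, and 0.07 when the spike-in probes set the scale. The probe A_65_P04961, for NM_008745, gave 64.9 with the agonists and 36.6 with the antagonists, both well above background. Its log2 ratio of 0.59, or 1.5-fold, was about the size of that of Mbp and larger than its error of 0.29. With the normexp correction it was 0.13, and that correction shrinks the ratios of dim spots by construction. The probe A_51_P393454, also for NM_001025074, had 10 spots, and 0 of them were well above background on either array. The agonist spots ran from 3.64 to 7.05 signal units and the antagonist spots from 3.95 to 6.40, so no fold is given. A transcript named for 1 accession was therefore bright by one probe and not well above background by another. The files give no position of a probe in its transcript, so which forms of TrkB each probe reports cannot be told.

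**Figure D2:**
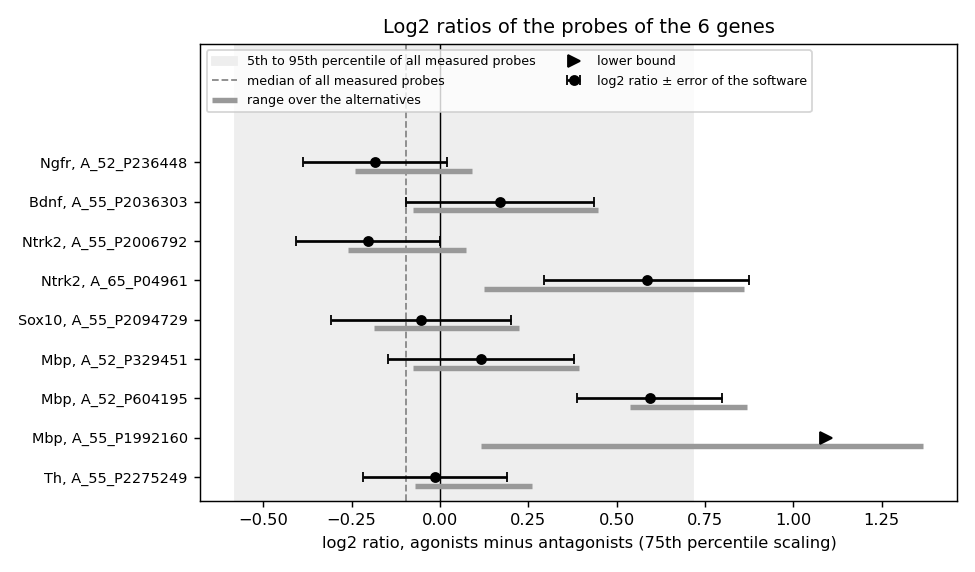
Log2 ratio (agonists minus antagonists, 75th percentile scaling) of the 9 probes well above background on at least 1 array, with the software's error as bars and the range over the alternative settings as grey bars. The arrow head, labelled as a lower bound, marks the probe of Mbp well above background on the agonist array only, at its plain ratio. All 8 probes measured on both arrays lie between the 5th and the 95th percentile of all measured probes (-0.58 to 0.72, shaded), and the bars of Mbp for A_52_P604195 and of Ntrk2 for A_65_P04961 lie above 0.

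Sox10 encodes the transcription factor on which Schwann cells and other neural crest glia depend. Its single spot, for NM_011437, gave 63.3 signal units with the agonists and 55.5 with the antagonists, both well above background at 3.49 and 2.79 times the lowest such signal. The difference between the spots was close to the software's error of 7.68 and 7.10 for them. The log2 ratio was -0.05 with an error of 0.25, and 0.04 against the median of all measured probes. Its sign turned with the scaling, from -0.11 with scaling on the median to 0.22 when the spike-in probes set the scale.

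Mbp encodes myelin basic protein, and the same gene also gives the Golli transcripts, which cells other than glia make as well. Its probe A_52_P604195, for NM_001025245, gave 1943 signal units with the agonists and 1089 with the antagonists. The signals were separated by far more than the software's errors of 194 and 109. The log2 ratio was 0.59 with an error of 0.20, or 1.51-fold higher with the agonists, and it stayed between 0.54 and 0.87 under every alternative tried. All of these alternatives used the same 1 spot per array. Mbp was the only 1 of the 6 genes whose ratio kept its sign under all of them. The other 2 probes, both for NM_010777, were dim. A_52_P329451 gave 55.6 and 43.4 signal units and a log2 ratio of 0.12 with an error of 0.26. A_55_P1992160 gave 51.2 with the agonists, well above background, and 20.3 with the antagonists, not well above background. The antagonist spot nevertheless lay above the lowest signal well above background of its array, 19.9. No value was raised, so 2.13-fold higher with the agonists is the plain ratio and not a lower bound. Its log2 ratio was 1.09 with an error of 0.38, and 0.12 with the normexp correction. Before scaling, all 3 probes of Mbp were brighter on the agonist array, by unequal amounts. So was every other probe of the 6 genes that was well above background, and the median of all measured probes was then 0.14. The shared direction before scaling is therefore not particular to Mbp. After scaling, the 3 probes of Mbp were still above 0 (0.59, 0.12 and 1.09). Bdnf (0.17) and the probe A_65_P04961 of Ntrk2 (0.59) were above 0 too. Ngfr (-0.18), the probe A_55_P2006792 of Ntrk2 (-0.20), Sox10 (-0.05) and Th (-0.01) were then below 0.

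Th encodes tyrosine hydroxylase, the rate-limiting enzyme of catecholamine synthesis. Its single spot, for NM_009377, gave 1279 signal units with the agonists and 1093 with the antagonists, which is 70.6 and 54.9 times the lowest signal well above background. Far above background on both arrays, the scaled values were nearly equal. The log2 ratio was -0.01 with an error of 0.20, between -0.07 and 0.26 over the alternatives.

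Around the 6 genes, 10 lists of related genes were examined for detection and for the same ratio. They hold 109 genes of neurotrophin signalling, GDNF signalling, glia, neurons and adrenergic receptors, of which 108 had a probe. Of these, 80 (74.1%) were well above background on both arrays, beside 73.9% of all named genes, and 18 on neither. A further 9 passed on the agonist array only and 1 on the antagonist array only, where 4.09% and 0.847% of all named genes did. By 2-fold or more, 4 of the 80 measured genes were higher with the agonists (5.00%, beside 4.01% of all named genes) and 3 were lower (3.75%, beside 0.577%), and their median log2 ratio was -0.07. None of these 7 is among the 6 genes described above.

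**Figure D3:**
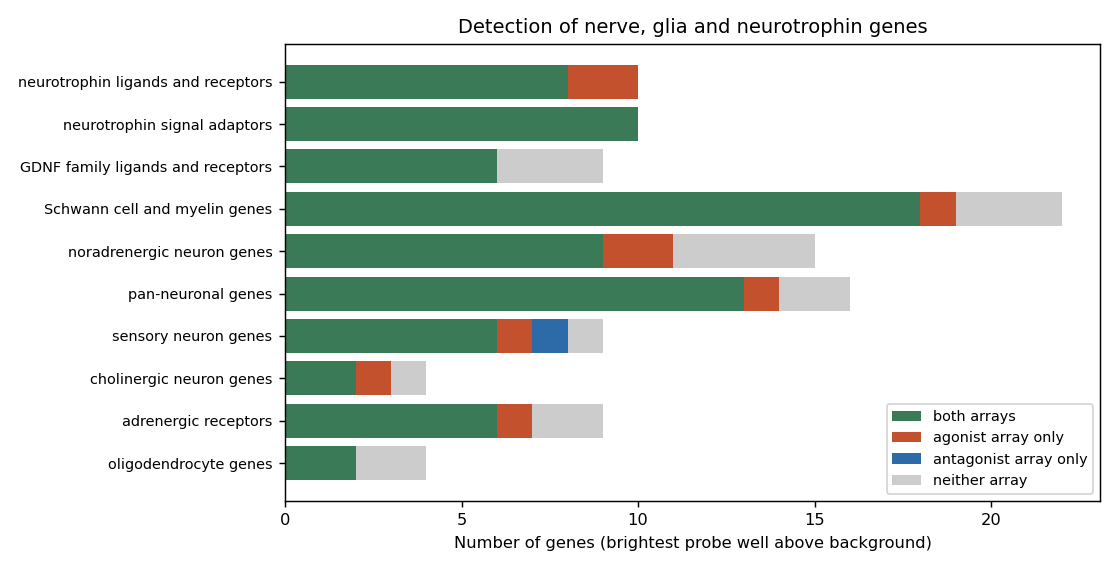
Number of genes in each of 10 lists whose brightest probe was detected (well above background) on both arrays, on 1 array only or on neither. All 10 signal adaptors were detected on both arrays, and 4 of 15 noradrenergic genes on neither.

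Bdnf, Ntrk2 and Ngfr were set beside other neurotrophins and receptors, which are named here as relatives of the 6 genes. Among the ligands, Ntf5 (NT-4/5), which shares TrkB with Bdnf, had signals of 251 and 228, agonists first, and a log2 ratio of -0.10. Ntf3 (NT-3) was well above background with the agonists only, at 78.2 against 18.3 signal units, or at least 3.33-fold higher. That bound, which rests on 1 spot per array, was 1.37-fold with the normexp correction. Among the receptors, the brightest probe of Ntrk3 (TrkC) was well above background with the agonists only, at 49.1 against 21.1. The dim value was not raised, so its 1.97-fold is a plain ratio and not a bound, and it was 1.05-fold under normexp. The probe of Ntrk3 measured on both arrays had a ratio of -0.14. The sorting receptors Sort1 and Sorcs2, partners of p75, had ratios of -0.55 and -0.54, and other probes of them -0.13 and 0.19. The 8 genes measured on both arrays had a median log2 ratio of -0.14, which became 0.10 without scaling, with 0 at least 2-fold apart. The 10 adaptors and partners of these receptors had a median of -0.15, and 0.10 without scaling. Those with the highest probe signals, Arhgdia, Maged1 and Bex3, had 0.19, -0.09 and -0.15.

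Sox10 and Mbp were set beside 20 other genes of Schwann cells and myelin. Of the 22 genes, 18 were measured on both arrays, 10 of them with a ratio above 0 and 8 below, and their median was 0.23, or -0.11 with the normexp correction. Those at least 2-fold higher with the agonists included S100b, a calcium-binding protein of glia and other cells, at 631 against 225 signal units and a log2 ratio of 1.25, and Fabp7, a fatty acid-binding protein of glial precursors, at 286 against 112 and 1.11. Both ratios, from 1 spot per array, lay above their error of 0.21, and under normexp they were 0.99 and 0.72. Mal, a proteolipid of myelin and of epithelia, had a bound of at least 3.68-fold on the agonist side, at 86.5 against 14.6, a bound that was 1.43-fold under normexp. On the higher side 3 of the 18 measured on both arrays passed 2-fold, where 4.01% of all named genes did. On the lower side 0 of the 18 passed, but only 0.577% of all named genes did, so this 0 says little. The genes Pmp22 and Dhh, named like Mbp for the signal of their probes, had ratios of -0.40 and -0.78, and Dhh is known from granulosa cells as well as from Schwann cells. Some markers of the Schwann cell lineage, named after their values were seen, were dim. Foxd3, Erbb3 and Cdh19 were not well above background on either array. S100b and Fabp7 were thus higher with the agonists, whereas Sox10 differed by less than its error.

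Th was set beside 14 other genes of noradrenergic neurons, of which Slc6a2, the noradrenaline transporter, Hand2, a transcription factor of these neurons, and Npy, their cotransmitter, were among those not well above background on either array. Dbh, the enzyme that makes noradrenaline from dopamine, was well above background with the agonists only, at 25.2 signal units and with a bound of 1.07-fold that was lost under normexp. Phox2a, another transcription factor of these neurons, had a bound of at least 3.36-fold on the agonist side, at 79.1 against 12.8, and 1.52-fold under normexp. The 9 genes measured on both arrays had a median log2 ratio of -0.01, and 0.23 without scaling. Slc18a2, the vesicular monoamine transporter, and Chga, a granin of secretory granules, named for the signal of their probes, had ratios of -0.15 and -0.31. Slc18a1, another vesicular monoamine transporter, was at least 2-fold lower with the agonists, at 24.5 against 42.3 signal units and a ratio of -1.03 with an error of 0.37. It rests on 1 dim spot per array, and the ratio was -0.79 without scaling, short of 2-fold, and -0.41 under normexp. Chgb, a further granin, had the largest difference of the list, in the opposite direction to S100b and Fabp7. Its 10 agonist spots ran from 25.8 to 37.3 signal units and its 10 antagonist spots from 154 to 196, and the log2 ratio was -2.70 with an SD of 0.18 over 10 pairs of spots, and -1.47 under normexp. Every agonist spot was dimmer than every antagonist spot.

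Genes common to neurons had a median log2 ratio of -0.15, or 0.09 without scaling, over 13 measured of 16, and they included large differences in both directions. Prph, the intermediate filament of peripheral neurons, was at 568 against 80.6 signal units, a ratio of 2.58, and 1.77 under normexp. Scg2, a granin like Chgb, was at 61.7 against 178, a ratio of -1.77, and -1.09 under normexp. Prph and Scg2 each rest on 1 spot per array. Snap25, Uchl1 and Syp, named for the signal of their probes, had ratios of -0.35, -0.15 and -0.13, and Uchl1 is also known from oocytes. Stmn2 and Nefm, genes of growing and of large axons, were not well above background on either array.

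**Figure D4:**
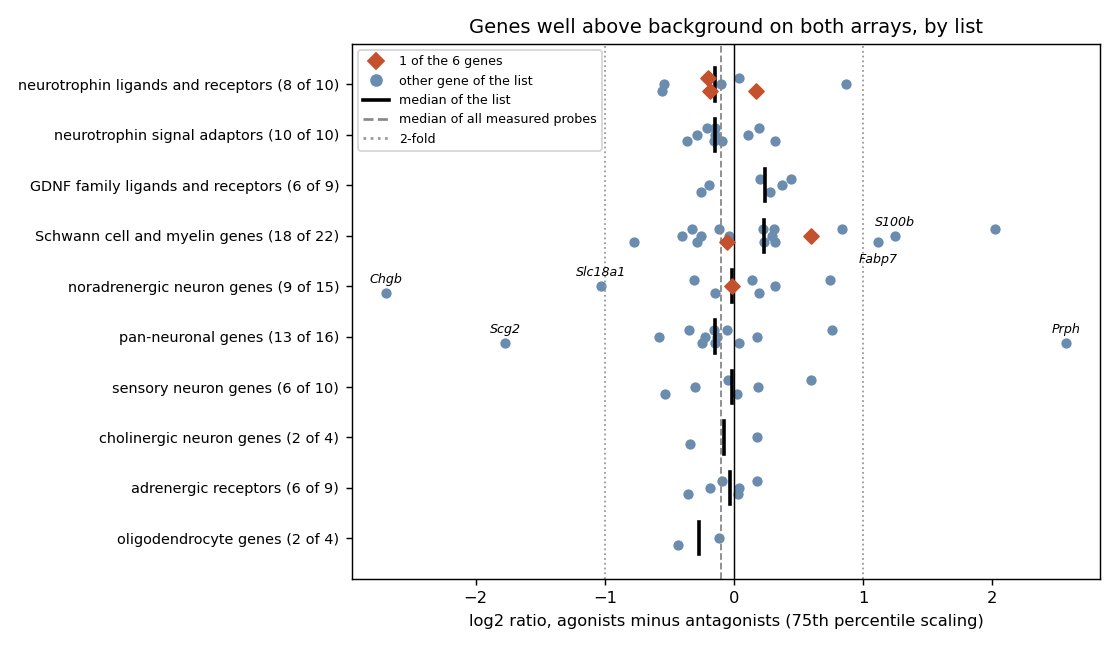
Log2 ratio (agonists minus antagonists, 75th percentile scaling) of each gene well above background on both arrays, by list, with the 6 genes as diamonds and the list's median as a bar. The diamonds lie between -0.20 and 0.59, and the labelled genes lie beyond the dotted 2-fold lines.

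Markers of other ovarian cells also differed between the arrays. For all named genes the median log2 ratio was -0.10, and 0.15 without scaling, so a count of ratios above 0 depends on the scaling. The share of all named genes above 0 was not counted. All 5 surface epithelium markers had a ratio above 0, with a median of 0.99 (Wt1 0.23, Krt18 1.03) and a summed level of 65.8 with the agonists and 43.0 with the antagonists in units of the array's 75th percentile. All 4 smooth muscle markers did so too, with a median of 0.71 (Tagln 0.81, Acta2 0.60) and summed levels of 37.8 and 23.1. Of the endothelial markers 3 of 4 measured ones did, with a median of 0.45 and summed levels of 59.7 and 53.7, whereas 4 of 6 granulosa cell markers had a ratio below 0, with a median of -0.57 and summed levels of 95.04 and 124. The other lists had medians of 0.34 (theca and stroma, 3 of 5 above 0, sums 252 and 209), 0.21 (macrophages, 3 of 4, 18.5 and 19.5) and 0.07 (oocytes, 3 of 6, 189 and 198). The theca and stroma list was not of 1 direction. Dcn, Pdgfra and Col1a1 had ratios of 0.34, 0.60 and 0.49, whereas Cyp17a1 and Star had -0.41 and -0.40, and another probe of Star had 0.01. The part of these cell types in the higher signals of Mbp, S100b and Fabp7 was not tested.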

How the data were processed

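Total RNA of the cultured ovary pieces was labelled with Cy3 and hybridised by a service company to Agilent SurePrint G3 mouse arrays, 1 for each group, on 1 slide. The authors deposited, per the file headers, linear spot intensity values after background correction by Agilent Feature Extraction 10.10.1.1, with the software's error and marks, and a summary table of intensities equal to the processed signal times 1.99 for the agonists and 2.19 for the antagonists.

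Control spots and spots marked as outliers were left out, log2 signals were reduced by the 75th percentile of their array and then averaged over the spots of each probe. The software's call of well above background had to hold at over 50% of a probe's spots. Of 55674 probes, 27235 took a gene name from their RefSeq transcript (gene table of GRCm38, without its coordinates); probes named otherwise were not matched to the 6 genes. A gene was represented by its probe with the highest mean signal. Where only 1 array was above background, the dim value, if lower, was raised to the lowest signal well above background there to give a bound. A dim value that was not lower was kept, which gives a plain ratio. The error of a log2 ratio combines the software's errors of both spots; over 284 probes with 10 spots the median SD between spots was 0.07. The number of arrays limits the precision.

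The 6 genes and the lists were chosen with earlier results of these data known. Genes named from a list were mostly those at least 2-fold apart, those with a bound of at least 2-fold and the 3 brightest. Others, among them Calcb, Avil, Dbh and Sort1, were named outside this rule. Some genes of the lists, the brightest of the sensory list among them, are counted but not reported by name here. Other scalings, the authors' values, normexp on the median spot signal, averaging spots and probes in other ways, other filters, and folds of 1.5 and 4 were tried. Python 3.11.15, numpy 2.4.6, pandas 2.3.3, statsmodels 0.14.6, R 4.3.3 and limma 3.58.1 were used, and the calculation was tested on simulated data.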

Additional observations from a re-analysis of the deposited data

How the results depend on the processing

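No paired analysis was possible because the design has a single array per group and nothing was tested. Without scaling, the log2 ratio was 0.057 for Ngfr, 0.039 for Ntrk2, 0.83 for Mbp and 0.23 for Th, and the medians were 0.10 for neurotrophin ligands and receptors, 0.47 for Schwann cell and myelin genes and 0.23 for noradrenergic genes. With scaling on the spike-in probes these were 0.092, 0.073, 0.87 and 0.26, then 0.13, 0.51 and 0.26, and Bdnf was 0.45 and Sox10 0.22. Ngfr was -0.10 with the percentile taken over spots well above background on both arrays, -0.056 with loess and -0.083 with the authors' values. The Schwann cell median was -0.11 with normexp, whose offset of 50 is close to the signals of the dim genes. The number of the 6 genes at least 2-fold higher, 0, became 1 with the 1.5-fold threshold. Of 80 values of member probes under the alternatives, 65 moved by less than their spread (the SD between spots for Ngfr, the software's error for the other probes) and 17 took the other sign; of 204 list medians, 168 moved by less than the median software error of the list and 33 took the other sign. Signal over background limits Bdnf, Sox10 and the dim probes of Ntrk2 and Mbp.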

Other observations

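Other genes that link nerves to the ovary were measured too. In the GDNF family, which signals to sympathetic and sensory neurons through the kinase Ret, 6 of 9 genes were measured on both arrays, with a median log2 ratio of 0.24, or -0.12 with the normexp correction. Gfra4, Nrtn and Gfra2 had ratios of -0.20, -0.25 and 0.44, Gdnf itself was at 252 with the agonists against 165 signal units and a ratio of 0.37, and Ret, Gfra1 and Pspn were not well above background on either array. Of the adrenergic receptors, which bind the noradrenaline of sympathetic fibres, 6 of 9 were measured on both arrays, with a median of -0.03, or 0.21 without scaling. Adra1b, Adra2b and Adra2a had ratios of -0.19, 0.03 and 0.18, and the other probe of Adra1b had -0.64.

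Of 10 sensory neuron genes 6 were measured on both arrays, with a median of -0.01 (0.23 without scaling), and Calcb had a bound of at least 1.79-fold on the agonist side, at 42.2 against 7.41 signal units, 1.13-fold under normexp. Avil was the 1 gene of the lists well above background with the antagonists only, at 34.8 against 21.5 signal units. Its dim value was not raised, so 1.91-fold on the antagonist side is a plain ratio and not a bound, and it was 1.48-fold under normexp. Among the cholinergic genes, Slc5a7, the choline transporter, had a bound of at least 5.20-fold on the agonist side at 122 against 17.4 signal units, 2.03-fold under normexp, while Chat and Slc18a3, the acetylcholine synthase and its vesicular transporter, had ratios of 0.18 and -0.34. Of the genes of oligodendrocytes, the glia of the brain, Olig1 and Olig2 were not well above background on either array, and Mog and Mobp had ratios of -0.12 and -0.43.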
